A study of Mus musculus with 12 samples.

Results

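The CIN-only H3K27me3 regions were 710 stretches of the mouse genome at which a peak of trimethylated histone H3 lysine 27 was listed in both replicates of cortical interneurons (CINs) and in neither replicate of the remaining cortical cells (non-CINs). They were selected on the peak lists themselves. Peaks lying 500 bp or less apart were merged in each list, CIN peaks that met any peak in the equally numbered non-CIN list were set aside, and the CIN peaks that were left in replicates 1 and 2 were intersected. Of 14915 stretches shared by both CIN lists, 710 (4.76%) met this rule. The reverse rule gave 1286 non-CIN-only regions, and 11563 stretches were present in all 4 lists and are called shared regions here. Both rules read listed peaks only, so a peak missing from a list is not a missing signal. The study's differential peak calling, a different rule, gave fewer regions with more H3K27me3 in CINs. All cells came from the cerebral cortex of *Gad67-GFP* heterozygote pups at postnatal day 2, with tissue of 2 to 3 litters pooled in a sample. CINs were the GFP-positive cells, in which the *Gad67* (*Gad1*) locus drives GFP, and non-CINs were all GFP-negative cells, so the latter hold projection neurons, glia and other cortical cells together. Each mark, H3K27me3 and H3K27ac, was profiled by native ChIP-seq in 2 CIN and 2 non-CIN samples.

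H3K27me3 is deposited by Polycomb repressive complex 2, whose catalytic subunits are EZH1 and EZH2, and marks genes held silent, above all developmental regulators that belong to other lineages. In vertebrates it lies over broad domains around CpG-rich promoters and also over shorter stretches away from them. Acetylation of the same lysine (H3K27ac) marks active promoters and enhancers, and a single histone tail cannot carry both marks at that residue, although a pool of cells or of alleles can.

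Reference sequence of 6 regions is given first, because later results turn on them. *Gja1*, *Dpf3* and *Cdc42ep1* each held a region with an H3K27ac peak in both non-CIN lists and in neither CIN list. *Neurod6* had a region at the promoter. The *Oxr1* region lay at the start of a transcript inside the gene, whose annotated span begins far upstream, at chr15:41447482. The *Lrmda* stretch is the middle of the longest region. Regions over 300 bp are shown by their central 300 bp. The letters are the plus strand of GRCm38.p6, whose chromosomes share the coordinates of the mm10 lists, and capitals mark CpG dinucleotides.
Gja1 chr10:56379931-56380230: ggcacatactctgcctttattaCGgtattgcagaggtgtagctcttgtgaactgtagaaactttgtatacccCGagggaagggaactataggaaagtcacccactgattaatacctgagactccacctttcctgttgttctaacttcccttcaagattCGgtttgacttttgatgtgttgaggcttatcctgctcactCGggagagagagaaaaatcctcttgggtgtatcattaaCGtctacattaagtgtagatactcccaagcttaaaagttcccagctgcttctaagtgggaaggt
Dpf3 chr12:83488574-83488773: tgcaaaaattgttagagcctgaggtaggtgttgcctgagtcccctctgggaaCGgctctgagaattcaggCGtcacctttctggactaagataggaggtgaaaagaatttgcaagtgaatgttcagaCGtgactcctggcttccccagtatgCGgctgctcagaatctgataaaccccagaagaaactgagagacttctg
Cdc42ep1 chr15:78843696-78843995: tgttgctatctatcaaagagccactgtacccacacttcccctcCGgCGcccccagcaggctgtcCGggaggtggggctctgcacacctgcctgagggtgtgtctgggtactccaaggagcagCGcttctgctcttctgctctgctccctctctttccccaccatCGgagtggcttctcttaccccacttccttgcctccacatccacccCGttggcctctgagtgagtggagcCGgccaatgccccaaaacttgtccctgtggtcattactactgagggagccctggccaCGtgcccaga
Neurod6 chr6:55681735-55682034: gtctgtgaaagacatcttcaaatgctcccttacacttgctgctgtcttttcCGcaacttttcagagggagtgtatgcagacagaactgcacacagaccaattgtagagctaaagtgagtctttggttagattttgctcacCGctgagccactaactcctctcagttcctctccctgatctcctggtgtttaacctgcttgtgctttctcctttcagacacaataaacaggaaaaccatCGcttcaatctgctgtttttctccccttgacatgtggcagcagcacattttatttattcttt
Oxr1 chr15:41788140-41788363: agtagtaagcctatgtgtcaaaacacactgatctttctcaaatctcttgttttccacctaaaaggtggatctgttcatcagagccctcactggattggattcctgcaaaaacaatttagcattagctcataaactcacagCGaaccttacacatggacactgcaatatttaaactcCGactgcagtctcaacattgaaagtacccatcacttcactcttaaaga
Lrmda chr14:22751824-22752123: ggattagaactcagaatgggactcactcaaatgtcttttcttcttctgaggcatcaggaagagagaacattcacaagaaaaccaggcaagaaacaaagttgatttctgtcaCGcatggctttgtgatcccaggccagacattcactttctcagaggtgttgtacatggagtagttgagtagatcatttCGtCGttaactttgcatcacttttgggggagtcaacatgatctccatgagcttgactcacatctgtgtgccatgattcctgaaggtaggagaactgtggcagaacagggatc
The 300 bp from *Gja1* held 5 CpG dinucleotides at 43.7% GC, those from *Neurod6* 3 at 44.0% and those from *Lrmda* 3 at 44.3%. *Cdc42ep1* had the most of these, with 8 at 60.7% GC. The shorter *Dpf3* stretch of 200 bp held 4 and the *Oxr1* stretch of 224 bp held 2.

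The H3K27me3 lists held between 36662 and 45081 peaks and the H3K27ac lists between 46040 and 62505, and in both marks the lists of replicate 1 held more peaks. By covered length the H3K27me3 lists of replicate 2 were the larger, with 44.2 against 34.5 Mb in CINs and 49.8 against 39.4 Mb in non-CINs. H3K27ac was checked at marker genes by the bases covered between 5 kb upstream of the start and the gene end. Of 6 CIN markers, 5 (*Gad1*, *Gad2*, *Slc32a1*, *Dlx1* and *Dlx2*) were covered more in both CIN lists than in both non-CIN lists, with 44692 and 34697 bp in all in CIN samples and 434 and 652 bp in those of non-CINs. *Lhx6* was at 0 in all 4 lists. Of 7 non-CIN markers only the glial genes *Aldh1l1* and *Olig2* were covered more in both non-CIN lists, and the projection neuron genes *Neurod2* and *Slc17a7* were at 0 in all 4. Markers of microglia and endothelium carried H3K27ac in CINs as well (24561 and 18203 bp over 5 genes, against 30821 and 23862 bp in non-CINs), with *Cx3cr1* and *P2ry12* covered more in both non-CIN lists and *Cldn5* at 0 in all 4. The part of such cells in the results below was not tested.

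The CIN-only regions were short and weak beside shared regions. Their median length was 272.5 bp, the longest spanned 4453 bp, 49 reached 1 kb, and 174 were stretches under 200 bp where the peaks of both replicates met only in part. Shared regions had a median length of 731 bp and non-CIN-only regions one of 235 bp. Strength was read as the rank of the fold enrichment of the strongest peak within the merged peak that holds a region. The rank is the percent of the peaks in that list at or below it. That strongest peak can lie outside the region itself. The median rank of the CIN-only regions was 43.5 in CIN replicate 1 and 44.0 in replicate 2, against 76.5 and 86.1 for shared regions. Non-CIN-only regions had median ranks of 35.2 and 40.9 in the lists of non-CIN replicates 1 and 2. The median fold enrichment was 3.76 and 3.73, and the highest 6.62 and 5.37, whereas shared regions reached 35.6 and 22.2. Non-CIN-only regions had a median fold enrichment of 3.71 and 3.91 in the non-CIN lists, with a highest value of 5.39 and 5.87, so the order of both sets differed between replicates. Ranks in replicates 1 and 2 had a Spearman rho of 0.17 across the 710 regions, which are not independent of each other. A rank above 90 was found for 16 regions in replicate 1 and for 2 in replicate 2. The median −log10 q of CIN-only regions was 3.49 and 3.40 in CIN replicates 1 and 2. The lowest value listed was 2.47 and 2.34, and 72 of the 710 regions reached 4 in both lists. Since the members were chosen by these H3K27me3 calls, the values describe them and are not tested.

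**Figure D1:**
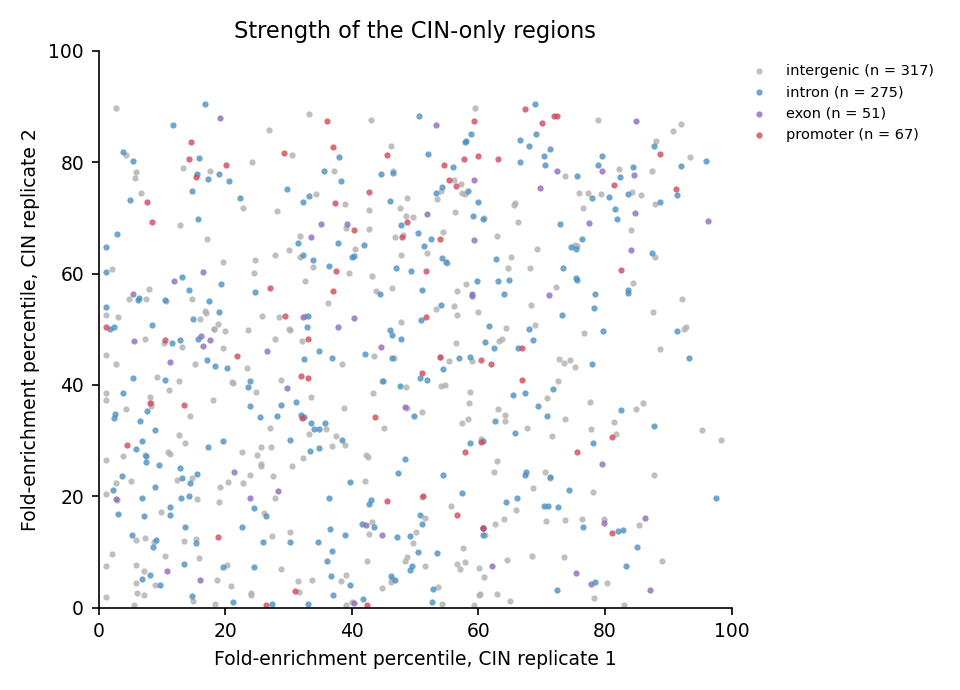
Each point is 1 of the 710 CIN-only regions, placed by the rank of its H3K27me3 fold enrichment (percent of the list's peaks at or below it) in CIN replicate 1 (x axis) and replicate 2 (y axis) and coloured by genomic class. The points fill the square with little alignment between replicates (Spearman rho 0.17), and only 2 lie above a rank of 90 on the y axis.

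The edge of the rule was gradual. Among the 14915 stretches of both CIN lists, 1100 had no non-CIN peak over them, and 390 of these were left out because the wider CIN peak met a peak of the equally numbered non-CIN list further along. Those 390 had a median length of 233 bp and median ranks of 37.6 and 58.9, with a non-CIN peak of either replicate within 1 kb of 363 of them. Of the 710 members, 182 had a non-CIN peak that near, and the median distance from a member to a non-CIN peak was 3457 bp.

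Of the 10 strongest regions, 4 were intergenic, 4 intronic, 1 exonic and 1 at a promoter. Ordered by the lower of both CIN ranks, the first was a 2679 bp intergenic stretch at chr3:6890569-6893247, with ranks of 92.0 and 86.8. It was followed by chr10:9165739-9166063 (90.7 and 85.6), 280 kb from the start of *Sash1*, a scaffold gene, and by a 208 bp exonic stretch 669 bp from the start of *Eif5*, a translation initiation factor gene (84.8 and 87.4). The *Eif5* stretch had an H3K27ac peak in non-CIN replicate 1 alone. The fourth, chr2:47835516-47839094, spanned 3579 bp in a gene desert 975 kb from *Acvr2a*, the nearest protein-coding start. The longest region, 4453 bp in an intron of *Lrmda* at chr14:22749748-22754200, came next with ranks of 87.8 and 82.8. The *Oxr1* region shown above, at a transcript start inside the gene, had 88.8 and 81.5. A stretch on an unplaced contig (93.4 and 81.0), 1 lying 31.1 kb from *Olig1*, the oligodendrocyte transcription factor gene (96.0 and 80.2), 1 in *March1* (79.5 and 81.2) and 1 in *Plekha6* (92.1 and 79.2) made up the 10 strongest. Of these 10, only the one near *Olig1* carried H3K27ac in all 4 lists, at ranks of 61.5 and 75.7 in CIN samples, compared with 88.3 and 77.9 for non-CINs. The other 3 of the 5 longest regions were intergenic, with 2824 bp at chr1:35743741-35746564, 2769 bp at chr13:115577906-115580674 and the 2679 bp stretch on chromosome 3.

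By position, 67 of the 710 regions (9.44%, 95% Wilson interval 7.50 to 11.8) overlapped a promoter, taken as 1 kb upstream to 100 bp downstream of a transcription start. A further 51 (7.18%) overlapped an exon, 29 of them coding sequence, 275 (38.7%) lay in introns and 317 (44.6%, 41.0 to 48.3) were intergenic. Promoters made up 21.5% of shared regions and 4.12% of non-CIN-only regions. Intergenic shares were 38.0% and 52.0% in these sets. The intervals cover counting error only, and neighbouring regions are not independent. The CIN-only promoter share was 18.3% with H3K27me3 peaks of −log10 q of at least 4 and 5.35% with replicate 1 alone. It was 15.8% with promoters of 2000 bp upstream to 500 bp downstream. The other sets were not counted under these settings. Promoter regions were longer, with a median of 362 bp, than intergenic regions, with 259 bp. There were 17 regions on chromosome X and 6 on unplaced contigs.

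By the median, CpG was below its expected number in all 3 region sets. Over the 635 CIN-only regions of at least 100 bp on assembled chromosomes, the median GC content was 44.3%. It was 46.1% in shared and 45.6% in non-CIN-only regions. The median ratio of observed to expected CpG was 0.22, compared with 0.25 and 0.18. A CpG island-like composition (GC of at least 50% and a ratio of at least 0.6) was found in 31 of the 635 (4.88%, 3.46 to 6.85), in 2.68% of shared and in 1.15% of non-CIN-only regions. A median of 10.6% of a region was masked as repeats. Short motif letters were counted on both strands in the central 200 bp of 704 regions. TAATTA, a core bound by homeodomain factors, was present in 42 (5.97%), against 4.68% of shared and 5.29% of non-CIN-only regions. The E-box CAGATG, a form bound by proneural factors, was in 77 (10.9%), against 14.1% of shared and 14.2% of non-CIN-only regions. TTGGCA, an NFI element, was in 80 (11.4%), against 9.66% and 11.0%. CTTTGT, a SOX core, was in 130 (18.5%), against 16.4% and 17.3%, and TGACTCA, an AP-1 site, in 22 (3.13%), against 3.43% and 3.89%. A match describes these letters only.

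Distances to shared H3K27me3 regions come from the same lists as the rule, which partly fixes them by merging peaks and by dropping CIN peaks that meet a non-CIN peak, so they are a description. The median distance to the nearest shared region was 50.7 kb (quartiles 7.72 and 273 kb, over the 708 regions on a chromosome or contig with one), compared with 17.9 kb for non-CIN-only regions. Of the 710, 134 (18.9%, 16.2 to 21.9) lay within 5 kb of a shared region, against 24.8% (22.5 to 27.2) of non-CIN-only regions. This share of CIN-only regions was 10.6% with a merging gap of 1000 bp and 28.3% without the pairing by replicate number (no replicate block), and 31.5% or 46.3% with a single replicate. Only 8 lay within 1 kb. More than 100 kb separated 291 of 708 (41.1%) from any shared region, against 23.4% of non-CIN-only regions. Promoter regions were the most remote, at a median of 123 kb, and intron regions had a median of 46.5 kb. Only 17 regions (2.39%) were within 5 kb of 1 of the 954 shared regions that reached 5 kb in length.

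**Figure D2:**
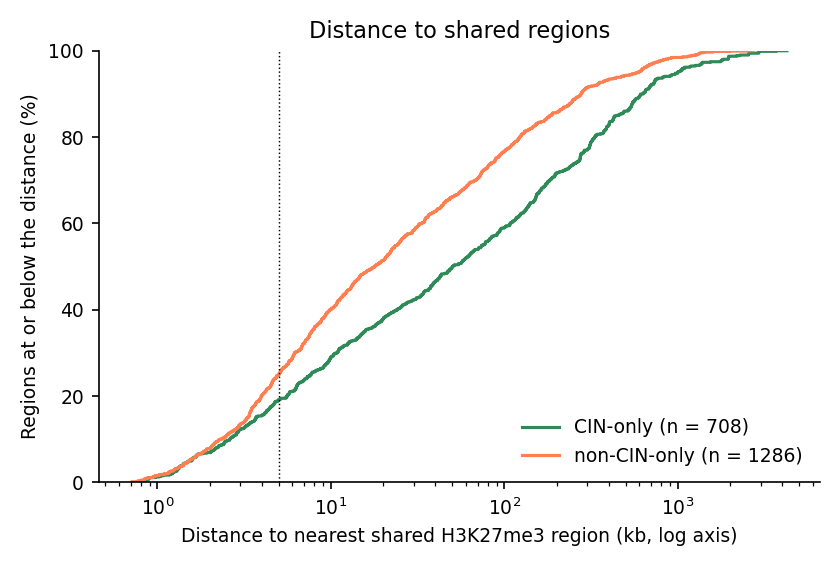
Cumulative share of regions (y axis, %) against the distance to the nearest shared H3K27me3 region (x axis, kb, log scale), for CIN-only (green) and non-CIN-only regions (orange), with a dotted line at 5 kb. The curves run together at the shortest distances and are apart at 5 kb (18.9% and 24.8%), with medians of 50.7 and 17.9 kb.

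H3K27ac was not used in the rule that chose the regions, although it was measured in the same cell populations. A peak of H3K27ac lay over 80 of the 710 regions (11.3%, 9.15 to 13.8) in CIN replicate 1 and over 74 (10.4%, 8.38 to 12.9) in replicate 2. In non-CINs it lay over 104 (14.6%, 12.2 to 17.4) and 83 (11.7%, 9.53 to 14.3). Both non-CIN samples were above both CIN samples, and the means differed by 2.32 percentage points (13.2% against 10.8%; exact permutation test over 4 samples, two-sided, *p* = 0.333, the smallest that 2 samples against 2 allow). This separation of the groups did not hold under 5 of the 12 alternatives that kept 2 samples a group, where the exact *p* was 0.667 or 1, as with regions extended by 1000 bp on each side (0.667) or without the pairing by replicate number (no replicate block, 0.667). The gap was 3.38 points between the samples of replicate 1 and 1.27 between those of replicate 2. With the regions also chosen from a single replicate, it was 0.018 points in replicate 1 and 0.90 in replicate 2. Over non-CIN-only regions the order was the opposite, with 4.67% and 2.80% in the CIN samples as opposed to 2.02% and 1.40% in the non-CIN samples. The difference between the region sets, non-CIN minus CIN, was 4.35 points (exact permutation test, *p* = 0.333), and there the groups stayed apart under all 9 such alternatives. Over shared regions the shares were 8.85% and 4.30% in CIN samples and 6.05% and 3.37% in those of non-CINs, and there the samples of CINs and non-CINs overlapped.

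**Figure D3:**
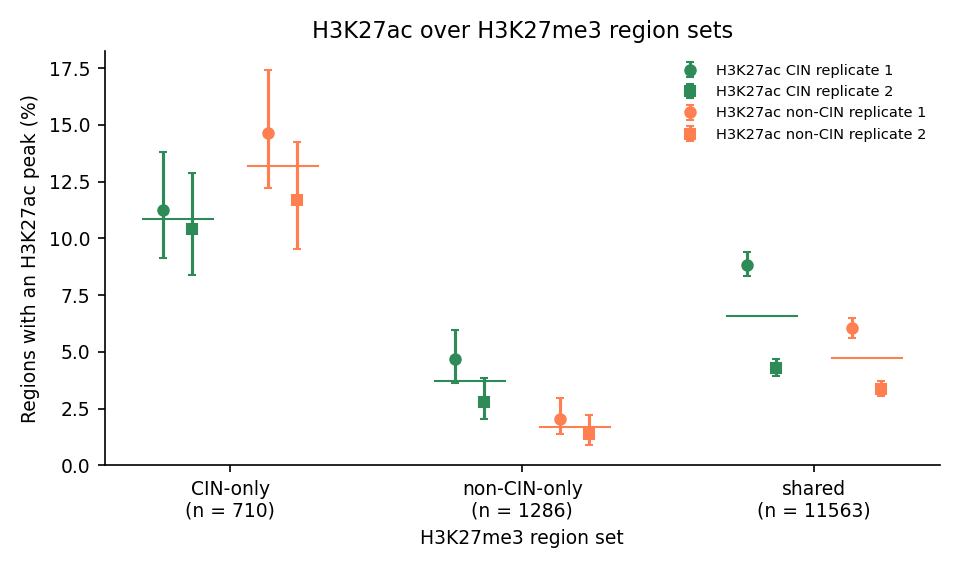
Share of H3K27me3 regions (y axis, %) with an H3K27ac peak over them, for the 3 region sets (x axis), in CINs (green) and non-CINs (orange). Circles are replicate 1, squares replicate 2, bars 95% Wilson intervals (counting error only) and lines the group means, and only over CIN-only regions do both non-CIN samples lie above both CIN samples.

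Most regions, 590 of 710 (83.1%), had no H3K27ac peak in any list, as did 89.2% of shared and 95.2% of non-CIN-only regions, so that H3K27ac was present over 16.9%, 10.8% and 4.82% of these sets. Among the other 120, 55 had one in all 4 lists and 27 in a single list, 19 of these in non-CIN replicate 1. Where H3K27ac was present, its rank was often higher in both non-CIN lists than in both CIN lists, and seldom the reverse. With a rank of 0 where no peak was listed, 47 of the 120 (39.2%) were higher in non-CINs in this sense and 4 (3.33%) in CINs. Among the 1245 shared regions with H3K27ac, the same counts gave a background of 11.0% and 17.2%. Non-CIN-only regions gave 2 and 27 of 62. In replicate 1 by itself, 92 of the 120 ranked higher in the non-CIN list and 23 in the CIN list, and in replicate 2 by itself 68 and 22. These are 76.7% and 19.2% in replicate 1, against 34.3% and 62.9% of shared regions with H3K27ac, and 56.7% and 18.3% in replicate 2, against 21.2% and 25.4%. With each H3K27ac list limited to its 40000 strongest peaks, an alternative added after seeing the data, 48 of 106 (45.3%) were higher in non-CINs and 3 (2.83%) in CINs, against 13.6% and 20.4% of shared regions. Members with H3K27ac lay near genes, with 82 of the 120 (68.3%) within 2 kb of a protein-coding start, while 138 of all 710 (19.4%) did. The share was 78.2% (43) among the 55 with H3K27ac in all 4 lists and 76.6% (36) among the 47. By class, H3K27ac in any list was found over 34 of 67 promoter regions (50.7%, 39.1 to 62.3), 17 of 51 exon regions, 52 of 275 intron regions (18.9%) and 17 of 317 intergenic regions (5.36%, 3.37 to 8.42). Among shared regions these shares were 20.2% at promoters, 14.6% in exons, 10.5% in introns and 4.69% between genes.

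In 7 regions H3K27ac was present in both non-CIN lists and absent from both CIN lists, that is 0.986% of 710, against 0.216% of shared regions. The reverse was found in 1 CIN-only region, and in 114 (0.986%) of the shared regions. The first of the 7 was in an intron of *Nkain2*, encoding a partner of the sodium pump, where H3K27ac ranked 88.1 and 95.3 in non-CINs. *Gja1*, encoding the astrocytic gap junction protein connexin 43, had ranks of 29.6 and 90.6 over its intronic region. The other ranks were 80.7 and 72.1 at *Cdc42ep1*, a regulator of the actin cytoskeleton, 61.4 and 49.6 at the promoter of *Dpf3*, a subunit of the BAF chromatin remodelling complex, and 61.0 and 44.9 at *Iqgap2*, a scaffold protein gene. They were 46.1 and 31.3 at *Abtb2*, and 23.6 and 5.86 at the promoter of 4931429P17Rik, a transcript whose nearest protein-coding start was that of *Id4*, 242 kb away. The *Nkain2* region lay 6.14 kb from a start of the gene, and the others named with a coding gene lay between 816 bp (*Iqgap2*) and 1270 bp (*Abtb2*) from one.

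*Gja1* held 2 CIN-only regions. The first, 1032 bp at chr10:56377438-56378469, began 107 bp inside the gene and ranked 48.0 and 66.5 for H3K27me3 in CINs. H3K27ac was present over it in all 4 lists, at ranks of 62.7 and 79.3 in CIN samples, compared with 93.7 and 90.6 for non-CINs. Over the whole gene window H3K27ac covered 2902 and 2433 bp in the CIN samples as opposed to 5044 and 4627 bp in the non-CIN samples, without overlap between the groups (exact permutation test, *p* = 0.333). H3K27me3 peaks covered 1562 and 2838 bp of the window in CIN samples and none in those of non-CINs, which the rule largely fixes.

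**Figure D4:**
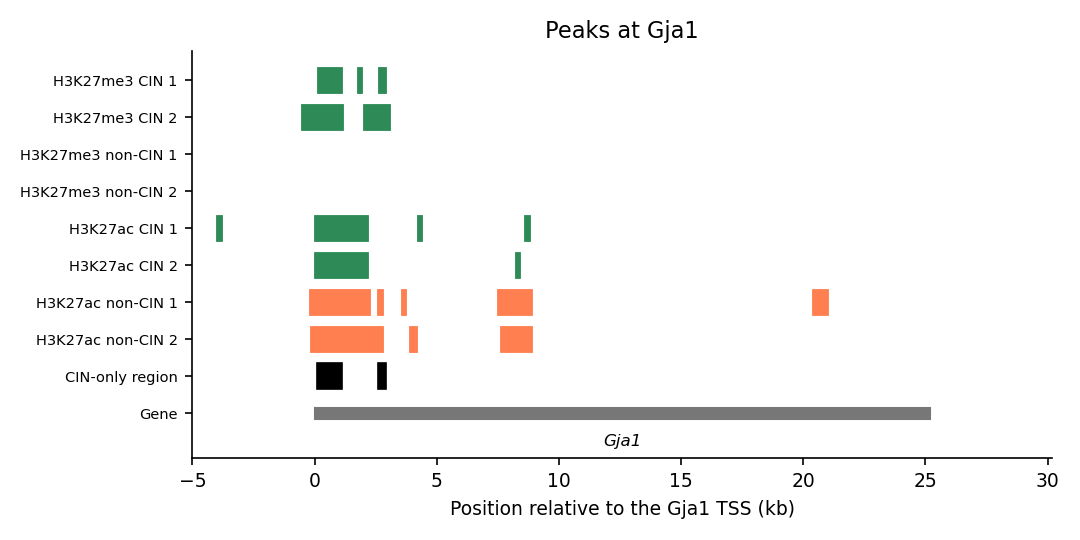
Listed peaks in each sample (rows; CINs green, non-CINs orange), CIN-only regions (black) and the gene body (grey) at *Gja1*, by distance from the gene start (x axis, kb). H3K27me3 peaks appear in the CIN rows only, while H3K27ac peaks at the start appear in all 4 samples and reach further into the gene in the non-CIN rows.

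A region lay at the promoter of 47 protein-coding genes, 0.214% of the 21951 annotated. The start of any transcript counted, and that of *Oxr1* lay inside the gene. After *Oxr1*, an oxidation resistance gene, the highest lower ranks belonged to *Inhbb*, the inhibin beta B subunit (81.5 and 76.0), *Ccn2*, a matricellular growth factor also known as CTGF (91.2 and 75.1), *Rnf125*, a ubiquitin ligase (72.3 and 88.3), *Tagln2*, an actin-binding protein (70.1 and 87.0), and *Trim47* (67.3 and 89.5). *Gli3*, a Hedgehog pathway transcription factor, ranked 59.9 and 81.1, and its region carried H3K27ac at 49.9 and 45.0 in CIN samples, compared with 77.5 and 58.6 for non-CINs. *Zfp36l1*, an RNA-binding protein that destabilises messengers, had 51.7 and 52.3, with H3K27ac at 84.6 and 78.0 in the CIN samples as opposed to 91.7 and 91.1 in the non-CIN samples. At *Pde3a*, a phosphodiesterase gene, H3K27ac ranked 7.00 and 0 in CIN samples and 64.5 and 49.8 in those of non-CINs. At *Shc3*, a neuronal adaptor, all 4 lists had H3K27ac above a rank of 98. *Bhlhe40*, a transcriptional repressor, also had it in all 4, at 90.5 and 87.6 in CIN samples, compared with 96.0 and 82.9 for non-CINs. No list had H3K27ac over 33 of the 67 regions at promoters of any gene. Among them were those of *Olfr285*, *Lrrc3b*, *Prrt3*, *Oprm1* (the mu opioid receptor) and *Epha6* (an ephrin receptor). *Adgre5*, *Hpdl* and *Rnf125* had H3K27ac over the region in non-CIN replicate 1 alone.

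In all, 303 protein-coding genes had a CIN-only region between 5 kb upstream of the start and the gene end, 1.38% of those annotated, and 374 of the 710 regions lay in such a window. Another 76 lay in windows of non-coding genes only and 260 in none. Of the 303 genes, 139 (45.9%) also held a shared region, against 17.7% of all protein-coding genes, which are shorter. Several regions were found in 36 genes, whose median length was 234 kb, against 35.2 kb for genes with 1 region and 17.4 kb for all protein-coding genes. The number of such genes depended on the rule, with 7 at a −log10 q of at least 4, 9 with 50% reciprocal overlap, 67 without the pairing (no replicate block) and 76 with a merging gap of 0 bp. *Lrmda*, a melanocyte differentiation gene of 1036 kb, held 15, in 2 separate groups of 8 and 7. *Itprid1* and *March1*, the latter a membrane-bound ubiquitin ligase, held 7 each. *Gsg1l*, an AMPA receptor auxiliary subunit, and *Agap1*, a GTPase-activating protein, held 6. *Tcf7l2*, the WNT pathway transcription factor, and *Itpkb*, an inositol trisphosphate kinase, held 4, and *Oxr1* held 3. The 13 counted for *Fgfr2*, the 5 for *Rasgef1b* and the 3 for Gm20388 rest on transcripts of great length in GENCODE. In RefSeq, *Fgfr2* spans 104 kb rather than 2961 kb and *Rasgef1b* 35.5 kb rather than 512 kb, and neither contains a region, while Gm20388 spans 4435 kb in GENCODE.

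H3K27ac over these gene windows was also more often higher in non-CINs. Of 256 genes with a CIN-only region and any H3K27ac, 84 (32.8%) were covered over more bases in both non-CIN lists than in both CIN lists, and 37 (14.5%) over fewer, whereas the background over 14672 genes was 18.0% and 18.1%. The genes with a region were longer (median 65.5 kb) than genes at large. Among the 42 with a region at the promoter, 20 (47.6%) were covered more in non-CINs and 5 (11.9%) more in CINs. *Gsg1l* had 2614 and 2482 bp in the CIN samples as opposed to 8825 and 7602 bp in the non-CIN samples. *Tcf7l2* had 9436 and 7229 bp in CIN samples and 18053 and 12673 bp in those of non-CINs. *Lrmda* had 9239 and 7302 bp against 12491 and 11188 bp, and *Itpkb* 9883 and 10750 bp against 15772 and 11893 bp. The order was reversed at *March1*, with 6777 and 4633 bp in CIN samples, compared with 3139 and 3435 bp for non-CINs. It was also reversed at *Oprm1*, with 1452 and 1032 bp in the CIN samples as opposed to none in the non-CIN samples. At *Agap1* the groups overlapped. None of these single-gene orders can reach an exact permutation *p* below 0.333.

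Joining members within 100 kb of the next left 401 by themselves and placed 309 in 100 groups, of which 19 held at least 5 regions and together 124. Groups of at least 5 also formed among non-CIN-only regions (20) and shared regions (654), so they were not particular to CIN-only regions. The rule that chose the members largely fixes the order of H3K27me3 cover in their groups, which is given as a description. H3K27ac covered more bases in both CIN lists than in both non-CIN lists in 6 of the 19 CIN-only groups (31.6%) and fewer in 3 (15.8%). Another 6 had H3K27ac with the samples overlapping and 4 had none. The same counts gave 21.3% and 8.41% of the 654 groups of at least 5 shared regions, which spanned more sequence (median 109 kb). Among the 20 groups of non-CIN-only regions (median span 158 kb) they gave 12 (60%) and 0. The largest CIN-only group held 11 regions over 260 kb of chromosome 7, and its nearest protein-coding start was that of *Bub3* at 29.4 kb. It lay among 32 shared regions, and H3K27me3 peaks covered 135209 and 145714 bp of it in CIN samples and 96083 and 117966 bp in those of non-CINs. H3K27ac covered 1534 and 639 bp of this group in CINs and none in non-CINs. A group of 10 near the start of *Lrmda* and over *Zfp503*, a zinc finger repressor, held 7 shared regions. Shared regions were also present in 4 of the remaining large groups and absent from the others. A run of 10 regions within 41.8 kb at chr15:59945211-59986985 had no protein-coding gene within it. H3K27me3 peaks covered 9648 and 9447 bp of that span in CIN samples, compared with none for non-CINs, and H3K27ac covered 311 and 200 bp in the CIN samples as opposed to 1368 and 617 bp in the non-CIN samples. A run of 8 lay within 35.4 kb of chromosome 19, 615 kb from *Tle4*. A run of 5 lay within 21.7 kb at chr13:48019122-48040772, 220 kb from *Id4*, the inhibitor of DNA binding gene expressed in astrocytes and progenitors. That group included a 2652 bp region of ranks 84.5 and 77.7, and H3K27ac covered 508 and 260 bp of the span in non-CINs and none in CINs. Among the groups with more H3K27ac in CINs, that of *March1* had 733 and 362 bp and that of *Itprid1* 741 and 200 bp in CIN samples, and both had none in those of non-CINs.

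*Neurod6*, a transcription factor gene of projection neurons, stood at the end of such a run. A 1166 bp region covered its promoter at chr6:55681302-55682467 (ranks 42.8 and 74.6), and a 610 bp region lay at the other end of the gene (77.5 and 69.1). The same group of 6 regions went on over 80.0 kb, and the 7 regions of *Itprid1* followed beyond it. H3K27me3 peaks covered 7675 and 12396 bp of the *Neurod6* group in CIN samples, compared with 1069 and 0 bp for non-CINs. The rule largely fixes this contrast. H3K27ac, which the rule did not use, was not higher in both non-CIN samples. Over the promoter region it ranked 39.5 and 30.8 in the CIN samples as opposed to 0 and 17.1 in the non-CIN samples, and over the group it covered 1701 and 1001 bp in CIN samples and 839 and 1881 bp in those of non-CINs, where the samples overlapped.

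**Figure D5:**
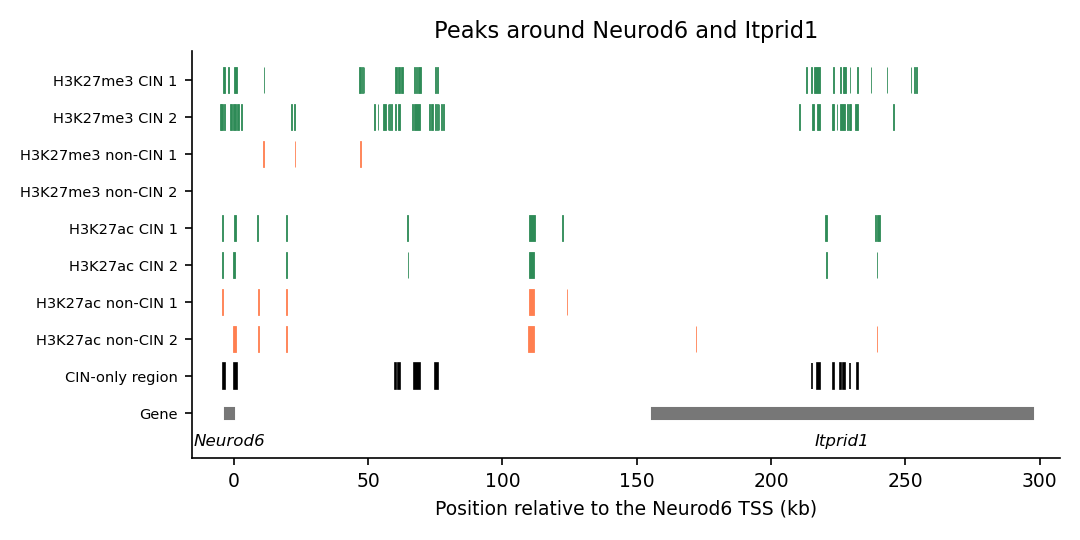
Listed peaks in each sample (rows; CINs green, non-CINs orange), CIN-only regions (black) and gene bodies (grey) from *Neurod6* to *Itprid1*, by distance from the *Neurod6* start (x axis, kb). H3K27me3 peaks fill 3 stretches in both CIN rows against 3 single peaks in non-CIN replicate 1 and none in replicate 2, and H3K27ac peaks are scattered in all 4 samples.

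The gene lists were read against the 1.38% of all protein-coding genes that had a CIN-only region in their window, and the 17.7% that held a shared region, without a test. The share with a non-CIN-only region was not counted, so those counts have no background. Lists were not matched for gene length, and genes with 1 CIN-only region were longer (median 35.2 kb) than all protein-coding genes (17.4 kb). Among 35 pallial and projection neuron genes, 4 (11.4%) had one, against 2 with a non-CIN-only and 25 with a shared region, namely *Neurod6* and *Tle4*, a corepressor, with 2 each, and *Foxp1* and *Nfib*, both transcription factors, with 1. The *Nfib* region had H3K27ac above a rank of 94 in all 4 lists. Of 26 astrocyte and radial glia genes, 2 (7.69%), *Gja1* and *Id1*, had regions, against none with a non-CIN-only and 5 with a shared region, and *Id1*, an inhibitor of DNA binding, had H3K27ac at 93.2 and 95.3 in CIN samples, compared with 95.5 and 94.9 for non-CINs. Of 20 oligodendrocyte lineage genes only *Lhfpl3* had one, and of 25 CIN and GABA genes only *Maf*, an interneuron transcription factor, which also held 4 shared regions. Its promoter region had H3K27ac at 42.5 and 49.0 in the CIN samples as opposed to 57.3 and 61.7 in the non-CIN samples. Axon guidance and adhesion genes gave 5 of 48 (10.4%), namely *Dcc*, *Epha6*, *Efna5*, *Cdh6* and *Cdh12*, while 6 of the 48 had a non-CIN-only and 26 a shared region. No CIN-only region fell in the window of any of 20 microglia, 26 endothelial and pericyte, 39 secreted WNT, BMP and FGF ligand, 25 glutamate receptor or 23 Polycomb and H3K27 enzyme genes, of which 5, 13, 34, 17 and 7 held a shared region. Of these lists, the ligand genes had 1 with a non-CIN-only region (*Fgf2*) and the glutamate receptor genes 2 (*Grin2d* and *Grik3*). At a CIN-only share of 1.38%, lists of these sizes would hold less than a single gene each, so the CIN-only zeros lie near the background. By symbol family, none of 39 *Hox* genes, 19 SOX genes or 16 T-box genes had a CIN-only region, while 39, 10 and 13 held a shared one, and the same limit applies to these families. Of 148 homeobox genes outside *Hox*, 3 (2.03%; *Dbx2*, *Tshz2* and *Zfhx3*) had a CIN-only region and 127 a shared one. ADAM and ADAMTS genes gave 3 of 58 (5.17%) and neurotransmitter and peptide receptor genes 6 of 155 (3.87%). The potassium channel family by symbol, with channel-interacting proteins counted, gave 3 of 94 (3.19%; *Kcnip3*, *Kcnip4* and *Kcnma1*).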

How the data were processed

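Native ChIP-seq of H3K27ac and H3K27me3 was available for 2 CIN and 2 non-CIN samples per mark (8 lists); 4 input samples had no peak list and were not analysed here. Per the labels, the authors used the mm10 build, BWA 0.7.15, SAMtools, MACS2 2.2.7 for broad peaks in each sample and deepTools 3.4.3; the methods of the study name another MACS2 release. The deposited lists give each peak a score, a fold enrichment (a ratio over background), a −log10 p-value and a −log10 q-value. The score was not used. Reads were not used here, so the depth is unknown, and list length stands in its place.

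Lists were merged and intersected in Python 3.11.15 with NumPy 2.4.6, SciPy 1.17.1 and pysam 0.24.0, and figures were drawn with matplotlib 3.10.9. The interval rule was tested on simulated data and against bedtools 2.31.1. Genes came from GENCODE, sequence from RefSeq's GRCm38.p6, in which all peak ends on the 21 assembled chromosomes fell inside their chromosome. The H3K27ac tests were exact permutation tests over 4 samples. The main rule pairs samples by replicate number, and deviations of peak presence from the population mean correlated at 0.34 between same-numbered samples over 59693 merged intervals, which are not independent. The study calls the replicates biological, and each sample pooled litters. The sources used here do not say what a number shares. Members and gene lists were chosen with earlier results of these data known. Genes were named if they held at least 3 regions, lay at or nearest to the 10 strongest or 5 longest regions or to regions with H3K27ac in non-CINs alone, had a region among the first 20 at promoters, belonged to a list, or were *Id4*.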

Additional observations from a re-analysis of the deposited data

How the results depend on the processing

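The sign of the H3K27ac difference over CIN-only regions (non-CIN minus CIN) held under all 14 alternatives, from 0.018 to 4.08 percentage points, and that of the difference between region sets under all 11, from 1.63 to 5.68. Over CIN-only regions, however, both non-CIN samples were not above both CIN samples under 5 of the 12 alternatives with 2 samples a group: the exact *p* was 1 with H3K27me3 peaks of −log10 q of at least 4, and 0.667 with 50% reciprocal overlap, no replicate block, the 30000 strongest peaks and regions extended by 1000 bp. For the difference between region sets the groups stayed apart under all 9. With a single replicate, the first fell to 0.90 (replicate 2) and 0.018 (replicate 1), with no test. Counts and shares moved more. Without the pairing by replicate number (no replicate block) there were 1100 regions, 28.3% within 5 kb of a shared region and 67 genes with several. A merging gap of 0 bp gave 1085 regions, 27.7% near and 76 genes, and a gap of 1000 bp 10.6% near. With only H3K27me3 peaks of −log10 q of at least 4 there were 191 regions, 18.3% at promoters, 34.6% intergenic, 13.1% near and 7 genes. A reciprocal overlap of 50% gave 274 regions, 13.5% at promoters, 39.8% intergenic and 9 genes. A margin of 1000 bp around non-CIN peaks gave 13.0% near, and the 30000 strongest peaks per list 12.1% at promoters. The promoter share was 15.8% with 2000 bp upstream to 500 bp downstream and 6.76% with protein-coding starts only, and 2.39% of regions were near a shared region of at least 5000 bp. Using replicate 1 or 2 alone gave from 6663 to 11040 regions, 5.35% to 7.92% at promoters, 48.7% to 56.4% intergenic, 31.5% to 46.3% near and 613 to 869 genes. Restriction to 200 bp regions, RefSeq gene bounds and 40000 H3K27ac peaks were chosen after seeing the data. Having 2 samples per group and unknown depth limits all comparisons.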

Other observations

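Several genes outside the naming rule, picked here after their values were seen, had a CIN-only region over which H3K27ac ranked higher in both non-CIN lists than in both CIN lists. *Tgfb2*, a TGF-beta ligand, had 48.6 and 60.7 in CINs, against 79.1 and 88.5 in non-CINs. *Jag1*, a Notch ligand, had 0 and 5.75 against 72.4 and 60.5, but H3K27me3 covered fewer bases of its whole window in CINs (367 and 882 bp) than in non-CINs (1146 and 4958 bp). *Smad3*, a transducer of TGF-beta signals, had 9.66 and 56.3 against 70.2 and 81.5 at its promoter, while H3K27me3 covered 1375 and 3701 bp of its window in CIN samples, compared with 1830 and 1291 bp for non-CINs. *Lrig1*, a feedback inhibitor of growth factor receptors, had 28.5 and 37.5 against 69.7 and 72.1, and *Mt1*, a metallothionein abundant in astrocytes, had 81.1 and 81.2 against 93.1 and 88.7, although H3K27ac over its whole window overlapped between the groups (1956 and 1345 bp in CINs, against 1482 and 1601 bp). *Ccn1*, the matricellular relative of *Ccn2*, had 66.3 and 72.2 against 79.7 and 87.7 over the nearer of its 2 regions. The 4 regions that ranked higher in both CIN lists lay at the *Neurod6* promoter, in an exon within the windows of the non-coding genes *Miat* and Gm26953 (88.5 and 72.8 in CINs, against 0 and 9.50), in an intron of *Med14* (88.0 and 89.3, against 86.0 and 86.0) and 97.4 kb from *Adgrl2* (77.9 and 9.73, against 0 and 0). *Egfr* counted as a promoter gene through a stretch of only 2 bp without H3K27ac.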
